A study of Mus musculus with 9 samples.

Results

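The nuclear genes of oxidative phosphorylation were taken from the table of expression levels by symbol. The members were 85 of 17187 genes, and comprised 38 genes with symbols of complex I (Nduf genes other than the Ndufaf assembly factors), 4 of complex II (Sdha to Sdhd), 9 of complex III (Uqcr genes and Cyc1), 17 of complex IV (genes of the Cox4 to Cox8 families) and 17 of complex V (Atp5 genes). Several symbols do not match the place of their product. Ndufa4 encodes a subunit of complex IV in spite of its name, Ndufa4l2 is its paralogue, Cox7a2l encodes a factor of respiratory supercomplexes, and the products of Atp5s and Atp5sl are not subunits of ATP synthase. They were kept where their symbols place them.

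Poly(A) RNA was measured in 9 libraries from punches of medullary brainstem containing the raphe nuclei, taken from wild-type mice 3 weeks after an adeno-associated virus had been injected into the cortex. GFP animals received AAV2-GFP (4 libraries), and hIL-6 animals received a cytokine vector with the treatment label AAV2-HIL6-GFP (5 libraries). The submitters also labelled 2 batches. Batch 1 held GFP libraries 1 to 3 and hIL-6 libraries 1 to 3, and batch 2 held GFP library 4 and hIL-6 libraries 4 and 5. The injected site and the sampled tissue differ, so the libraries describe the brainstem punches and not the injected cortex. The labels do not say whether libraries came from different animals, nor give the age or sex of the mice or a spinal injury, so p-values reflect only the spread among libraries, which may be technical. What a batch consisted of is not given either. The comparisons asked whether respiratory chain transcripts differed between the vectors and between the batches.

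The respiratory chain sits in the inner mitochondrial membrane. Complexes I and II pass electrons from NADH and succinate to ubiquinone, complex III passes them on to cytochrome c, and complex IV hands them to oxygen. Complexes I, III and IV pump protons, and complex V, the ATP synthase, lets the protons back through a rotating ring to make ATP. All subunits of complex II and most subunits of the others are encoded in the nucleus, whereas mitochondrial DNA (mtDNA) encodes hydrophobic core subunits of complexes I, III, IV and V. Neurons depend heavily on this chain for ATP.

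Some libraries stood apart in transcripts of other cells, as the marker lists show. Depth, read from the steps between low values, was 31.4 to 46.3 in units of 1e6 scaled fragments. Summed FPKM (fragments scaled by transcript length and library size) of 4 pituitary genes was 78.7 in GFP library 1 and 31.8 in hIL-6 library 4, and 0.183 to 7.39 elsewhere. The 2 haemoglobin genes that mark red cells summed to 362 FPKM in GFP library 1 and to 48.4 to 125 FPKM in the others. Summed FPKM of 5 motor neuron genes was 11.6 to 16.6 in GFP library 4 and hIL-6 libraries 1 and 3, and 34.9 to 62.2 in the others, and Isl1 was at 0 in hIL-6 library 1. The 3 serotonergic markers, which define neurons of the raphe, were detected in every library and summed to 22.9 FPKM in hIL-6 library 1 and to 42.4 to 96.2 FPKM in the others. Results that depend on these libraries are given with and without them.

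All 85 members passed the filter of a mean of 0.5 FPKM, and 69 had a mean of at least 100 FPKM. The median member level was 205 FPKM, against 9.42 FPKM over all 13958 genes tested. Median levels were 160.5 FPKM for complex I, 138 for complex II, 224 for complex III, 294 for complex IV and 297 for complex V. The members together took 2.88 to 3.65% of the summed FPKM of a library. The 13 mtDNA subunit genes were far higher, with a median level of 10650 FPKM and 22.7 to 29.3% of the sum. Levels are compared per length here, and 22 members have near-identical copies elsewhere in the genome (at least 95% identity over at least 80% of the coding length), between which the authors' counting could split fragments. The levels of these 22 genes, among them Atp5l, Atp5g1, Cox7c, Uqcrb and Ndufab1, are therefore uncertain.

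**Figure D1:**
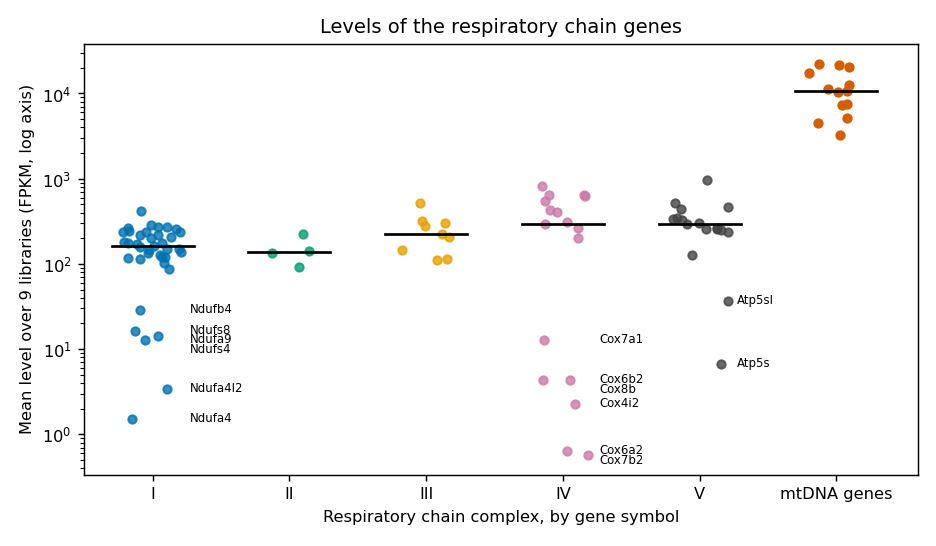
Mean level over 9 libraries of each member by complex (FPKM, log axis), with the 13 mtDNA subunit genes at the right; a point is a gene and a black line the median. Most members lie above 100 FPKM. The named genes below that cloud are alternative forms of complex IV subunits, several complex I genes, and Atp5s and Atp5sl of complex V.

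Within complex I, the level followed no simple split between the core subunits that carry electrons and the accessory subunits around them. The 7 core genes had a median of 126 FPKM, from Ndufs8 at 16.5 ± 1.51 FPKM (mean ± SD over 9 libraries) to Ndufv2 at 219 ± 16.8 FPKM. The 29 accessory genes had a median of 174 FPKM, from Ndufs4 at 12.7 ± 1.47 FPKM to Ndufb8 at 417 ± 35.3 FPKM. Ndufb4 (28.7 ± 2.08 FPKM) and Ndufa9 (14.2 ± 5.95 FPKM) were also far below the rest, although their products are stoichiometric subunits. Ndufb4 has an identical copy of its coding sequence in the genome. Ndufa9 has none. Its SD was large: the batches differed, and its level also varied within batch 1 (10.5 ± 2.73 FPKM).

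Complex II contains a catalytic head, the flavoprotein Sdha and the iron-sulphur protein Sdhb, and the membrane anchors Sdhc and Sdhd. Sdha was the highest at 227 ± 13.1 FPKM, followed by Sdhc at 142 ± 10.1, Sdhb at 133 ± 13.0 and Sdhd at 91.6 ± 4.12 FPKM. The difference between Sdhc and Sdhb was smaller than their spread over libraries. In complex III, the hinge protein gene Uqcrh was highest at 522 ± 34.1 FPKM. The catalytic subunits, cytochrome c1 (Cyc1, 112 ± 18.5 FPKM) and the Rieske iron-sulphur protein (Uqcrfs1, 114 ± 5.92 FPKM), were lowest and overlapped. The small subunits Uqcr11, Uqcr10, Uqcrq and Uqcrb had a median of 292 FPKM.

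In complex V, the catalytic beta subunit Atp5b was the highest of all members at 966 ± 50.5 FPKM, above the alpha subunit Atp5a1 at 463 ± 18.3 FPKM. The c ring, which rotates as protons pass, is built from an identical mature protein made from 3 genes that differ in their targeting sequences. Atp5g3 gave 50.5 to 54.95% of the summed level of these genes, Atp5g1 gave 32.1 to 37.2% and Atp5g2 gave 12.3 to 14.0%. That order held in each of the 9 libraries. The last 90 coding bases, which encode part of the mature subunit, are shown because they let the genes be told apart by sequence. They lie at chr11:96073107-96073196 (Atp5g1), chr15:102663017-102663106 (Atp5g2) and chr2:73908596-73908685 (Atp5g3), all on the minus strand of GRCm38 and each in 1 exon of the GENCODE annotation. Capitals mark bases that differ from Atp5g3.
Atp5g1: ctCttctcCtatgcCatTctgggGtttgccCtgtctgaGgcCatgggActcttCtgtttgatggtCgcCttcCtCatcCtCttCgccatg
Atp5g2: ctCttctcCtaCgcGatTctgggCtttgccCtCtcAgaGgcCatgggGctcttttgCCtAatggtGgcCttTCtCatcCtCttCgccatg
Atp5g3: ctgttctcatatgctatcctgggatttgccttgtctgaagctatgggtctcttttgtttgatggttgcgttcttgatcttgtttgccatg
Atp5g1 and Atp5g3 differ at 17 of these 90 bases, 14 of them at the last base of a codon. Atp5g2 and Atp5g3 differ at 23 bases, 19 of them at such a base, and Atp5g1 and Atp5g2 at 12 bases, 11 of them at such a base. Most differences thus lie at the last base of a codon. Atp5g1 and Atp5g2 have near-identical processed copies elsewhere, so the shares above are uncertain.

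Complex IV holds subunits with a widely used form and a second form known from other tissues or states. In these punches the widely used forms were far higher in each library. Cox4i1 (829 ± 84.6 FPKM) was above Cox4i2, a form known from lung and from oxygen regulation, by 262 to 554 times. Cox6a1 (641 ± 84.1 FPKM) was at 552 to 7430 times the level of Cox6a2, the heart and muscle form. Cox8a (651 ± 71.4 FPKM) was at 70.7 to 385 times the level of Cox8b, another heart and muscle form. Cox7a1, a heart and muscle form too, was the least rare at 12.7 ± 2.03 FPKM, and Cox7a2 was 17.97 to 25.5 times higher. Cox6b1 was 71.0 to 141 times higher than Cox6b2, known from testis, and Cox7b was 305 to 3448 times higher than Cox7b2. Cox6b2 lay at 4.34 ± 1.16 FPKM and Cox7b2, the lowest member, at 0.569 ± 0.287 FPKM. Cox8c was not analysed here. The genes with a single form, Cox5a, Cox5b, Cox6c and Cox7c, lay between 294 and 625 FPKM. At 1 FPKM a transcript of the median member length of 861 nt would have 22.3 to 32.2 scaled fragments, a counting error of 17.6 to 21.2%, so the ratios to Cox6a2 and Cox7b2 are imprecise. Skeletal muscle markers summed to 2.13 to 12.8 FPKM, most of it Mylpf, and Ckm was at 0.0491 to 0.556 FPKM.

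Ndufa4 was listed at low levels throughout, unlike other complex IV subunits of general use. It was at 2.30, 2.76, 2.41 and 0.549 FPKM in GFP libraries 1 to 4, against 1.68, 0, 3.004, 0.292 and 0.625 FPKM for hIL-6 libraries 1 to 5. It was lower in the batch 2 libraries than in all but hIL-6 library 2 of batch 1. No near-identical copy was found for it, and a value of 0 from an estimate by likelihood can be a failed estimate. Its paralogue Ndufa4l2, known as a target of oxygen sensing and in brain as a gene of pericytes, was at 3.36 ± 1.11 FPKM.

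Many members were high or low in the same libraries. As the deviation of each gene from its own mean on the log2(FPKM + 0.5) scale, the median member stood at -0.054, 0.19, -0.067 and -0.12 in GFP libraries 1 to 4 and at 0.11, 0.044, 0.073, -0.10 and -0.077 in hIL-6 libraries 1 to 5. The median over all tested genes stayed within 0.004 of 0 in each library. GFP library 2 held the highest value of 60 of the 85 members, and GFP library 4 the lowest value of 35. The 3 batch 2 libraries were all below 0 and the GFP and hIL-6 libraries overlapped. The complexes moved alike: in GFP library 2 their medians were 0.13 (complex II) to 0.23 (complex III), and in GFP library 4 they were -0.16 (complex I) to -0.030 (complex II). The mtDNA genes did not follow, with medians of 0.20, 0.25 and 0.23 in GFP library 4 and hIL-6 libraries 4 and 5. Slc17a7, a marker of some glutamatergic neurons, was chosen after its values were seen. In GFP library 2 and hIL-6 libraries 1 and 3, the 3 with the highest member medians, it was at 39.2, 97.3 and 30.8 FPKM. In the other libraries it was at 7.597 to 24.0 FPKM. No other glutamatergic marker is given here. The summed level of 3 markers of fast-spiking neurons was 330.1, 403 and 308 FPKM in the same 3 libraries and 263 to 298 FPKM in the others, and Kcna1 among them was lowest in GFP library 2 (54.2 FPKM) and hIL-6 library 3 (54.7 FPKM). The 8 general neuronal markers did not follow the members: their sum was lowest in hIL-6 library 3 (3291 FPKM) and was 4057 FPKM both in hIL-6 library 1 and in GFP library 4, which had the lowest member median. The part of cell composition in the member levels was not tested. In bulk tissue, fewer cells of a type and less RNA per cell cannot be told apart.

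**Figure D2:**
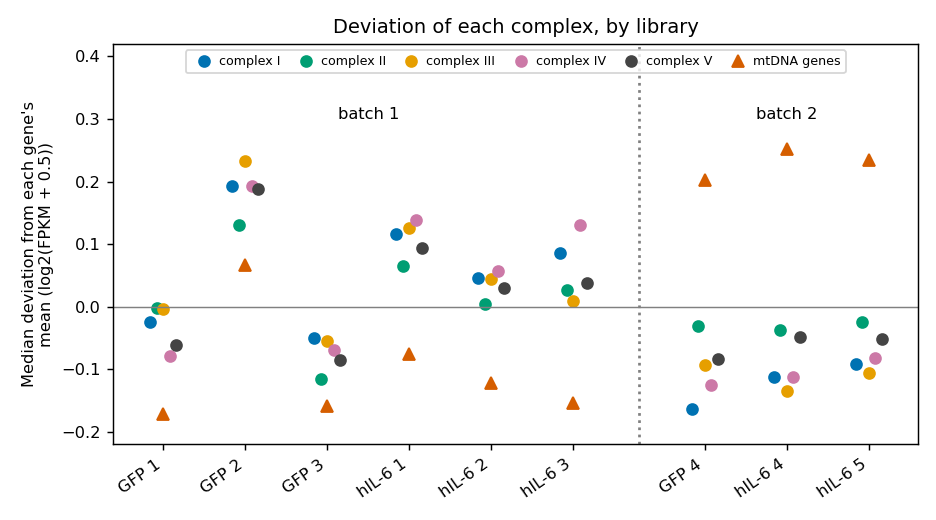
Median deviation of the members of each complex from each gene's mean over 9 libraries (log2(FPKM + 0.5)), by library, with batch 1 left and batch 2 right of the dotted line; triangles are the 13 mtDNA genes. GFP library 2 is the highest for each complex, and in batch 2 the nuclear genes lie below 0 and the mtDNA genes above.

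Of the 85 members, 32 (37.6%) differed between the batches, and most of these were lower in batch 2. With vector as a term (limma, Benjamini-Hochberg adjusted over 13958 genes, threshold 0.05), 28 members were lower (32.9%) and 4 were higher (4.71%). Among all genes tested, 22.5% were called, of which 11.1% of genes were lower and 11.4% were higher. The median log2 difference of the members was -0.17, against -0.003 over all genes. All values of batch 2 were below all values of batch 1 for 32 members (13.4% of all genes) and above them for 4 (14.3% of all genes). By complex, 15 of 38 genes of complex I, 1 of 4 of complex II, 4 of 9 of complex III, 6 of 17 of complex IV and 2 of 17 of complex V were lower. Complex medians were -0.19, -0.051, -0.18, -0.19 and -0.070 for complexes I to V. Of the 28 lower genes, 8 have near-identical copies and 20 have none. The summed level of 5 astrocyte markers also separated the batches, at 299 to 375 FPKM in batch 1 and 439 to 470.5 FPKM in batch 2. Slc1a2 had the highest level among them. Their median difference was 0.25, and 3 of 5 were called higher. Slc1a3 (0.25) did not pass the test, and Aqp4 went the other way (-0.10, not called). The part of astrocytes in the member differences was not tested.

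Among the core subunits of complex I, Ndufs7, which holds the last iron-sulphur cluster before ubiquinone, was at 145 to 180.4 FPKM with a median of 162 in batch 1. It was at 115, 122 and 126 FPKM in GFP library 4 and hIL-6 libraries 4 and 5. The batches did not overlap, and the log2 difference was -0.44 ± 0.067 (SE; adjusted p = 0.00542). Ndufv1, the NADH-binding subunit, fell by less (-0.20 ± 0.062, adjusted p = 0.0434). Of the accessory subunits 12 of 29 fell, and Ndufa11, a membrane subunit, fell from a batch 1 median of 219 to 162, 174 and 167 FPKM (-0.42 ± 0.070, adjusted p = 0.00605). Ndufa8, an intermembrane space subunit, fell from a median of 144 to 113, 115 and 112 FPKM (-0.34 ± 0.048, adjusted p = 0.00504). The others that fell were Ndufa2, Ndufa6, Ndufa7, Ndufa12, Ndufa13, Ndufab1, Ndufb7, Ndufc2, Ndufs5 and Ndufs6, by log2 differences of -0.38 to -0.22.

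Both called genes of complex I that were higher were subunits of the arm that extends into the matrix. Ndufs1, the largest core subunit, rose from a batch 1 range of 80.5 to 87.1 FPKM to 97.3, 95.1 and 91.9 FPKM (0.18 ± 0.044, adjusted p = 0.0203). Ndufa9, an accessory subunit near the ubiquinone site, was at 6.11, 11.8 and 9.63 FPKM in GFP libraries 1 to 3 and, with hIL-6 in the same batch, at 9.37, 12.3 and 13.8 FPKM. It was at 21.2, 20.7 and 22.7 FPKM in GFP library 4 and hIL-6 libraries 4 and 5. All 3 batch 2 values were above all 6 batch 1 values, with a log2 difference of 1.00 ± 0.19 (adjusted p = 0.00890).

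In complex II one catalytic subunit was called higher and the other lower. Sdha rose from a range of 208 to 224 FPKM in batch 1 to 242, 249.5 and 237 FPKM (0.14 ± 0.044, adjusted p = 0.0416). Sdhb fell from a range of 126 to 155 FPKM to 117, 118 and 124 FPKM (-0.23 ± 0.064, adjusted p = 0.0293). After the GC correction neither passed the test (Sdha 0.079, adjusted p = 0.351; Sdhb -0.11, adjusted p = 0.276), and with GC and length corrected Sdhb was at -0.039. The anchors Sdhc (-0.13 ± 0.063) and Sdhd (0.026 ± 0.055) did not pass the test.

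In complex III, 3 of 4 small subunits fell. Uqcrq was at 276 to 344 FPKM in batch 1 and at 214, 215 and 248 FPKM in batch 2 (-0.45 ± 0.077, adjusted p = 0.00701). Uqcr10 fell by 0.33 and Uqcr11 by 0.30 on the log2 scale, and Uqcrb was at 0.049 ± 0.047. Cyc1, which carries the haem of cytochrome c1, was at 105 to 142 FPKM in batch 1 and at 91.1, 95.8 and 88.2 FPKM in batch 2 (-0.41 ± 0.089, adjusted p = 0.0138). Uqcrc2, a core protein, rose from a range of 133 to 149 FPKM to 162, 166 and 155 FPKM (0.20 ± 0.052, adjusted p = 0.0246).

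In complex IV, the fall of Cox6a1 was the largest among the widely used forms, from a batch 1 range of 633 to 738 FPKM to 524, 538 and 555 FPKM (-0.37 ± 0.059, adjusted p = 0.00590). Cox8a (-0.27 ± 0.069), Cox5b (-0.22 ± 0.068) and Cox7c (-0.19 ± 0.059) also fell. The coding sequence of Cox7c has an identical copy, Gm12338, which went the other way. This copy was at 213 to 386 FPKM in batch 1. It was at 397, 398 and 459 FPKM in GFP library 4 and hIL-6 libraries 4 and 5. The part of fragments split between the 2 sequences in the fall of Cox7c was not tested. Cox4i1 did not pass the test (-0.21 ± 0.076, adjusted p = 0.0745), although its batches did not overlap. The rare form Cox4i2 was at 1.97 to 2.997 FPKM in batch 1 and at 1.32, 2.06 and 1.47 FPKM in batch 2, and hIL-6 library 4 lay above GFP library 3 of batch 1 (-0.58 ± 0.14, adjusted p = 0.0184). Ndufa4l2, counted with complex I by its symbol, was at 3.47 to 4.53 FPKM in batch 1 and at 1.95, 1.89 and 2.02 FPKM in batch 2, with no overlap (-0.90 ± 0.099, adjusted p = 0.00280). Both genes are known from pericytes. Of 6 markers of pericytes and smooth muscle the 5 tested had a median batch difference of -0.44, with 1 called (Pdgfrb, -0.44). The uncalled ones were Acta2 (-0.46), Tagln (-0.45), Kcnj8 (-0.24) and Rgs5 (-0.015), which had the highest level of the list. The 6 markers of these cells summed to 33.9 to 44.4 FPKM in batch 1 and 28.4 to 38.5 FPKM in batch 2. The part of these cells in the fall of Cox4i2 and Ndufa4l2 was not tested.

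In complex V, Atp5d, the delta subunit of the central stalk, fell from 227 to 302 FPKM to 189, 202 and 207 FPKM (-0.38 ± 0.084, adjusted p = 0.0141), and Atp5g1 fell as well (-0.26 ± 0.079, adjusted p = 0.0437). The catalytic core did not pass the test: Atp5a1 differed by 0.0072 ± 0.053 and Atp5b by -0.011 ± 0.062. None of the 7 genes of the peripheral stalk and membrane part passed it either, without correction for GC. Atp5j of this part differed by 0.14 ± 0.059. It passed the test as higher after the GC correction (0.29, adjusted p = 0.0288). With GC and length corrected it passed as higher as well (0.38, adjusted p = 0.0038).

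The batch calls rested on few libraries. Batch 2 held 3 libraries, and the count of members called fell from 32 to 1 when GFP library 4 was left out, to 13 when hIL-6 library 4 was and to 19 when hIL-6 library 5 was, while the median difference stayed between -0.19 and -0.14 when any of the 9 libraries was left out. The share of all genes called fell with it, to 0.208%, 6.86% and 12.2% in the same order. Without both libraries with pituitary transcripts 1 member was called (median -0.18) beside 0.265% of genes, and without the 3 libraries low in motor neuron genes 0 were called (median -0.13) beside 0.0215% of genes.

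**Figure D3:**
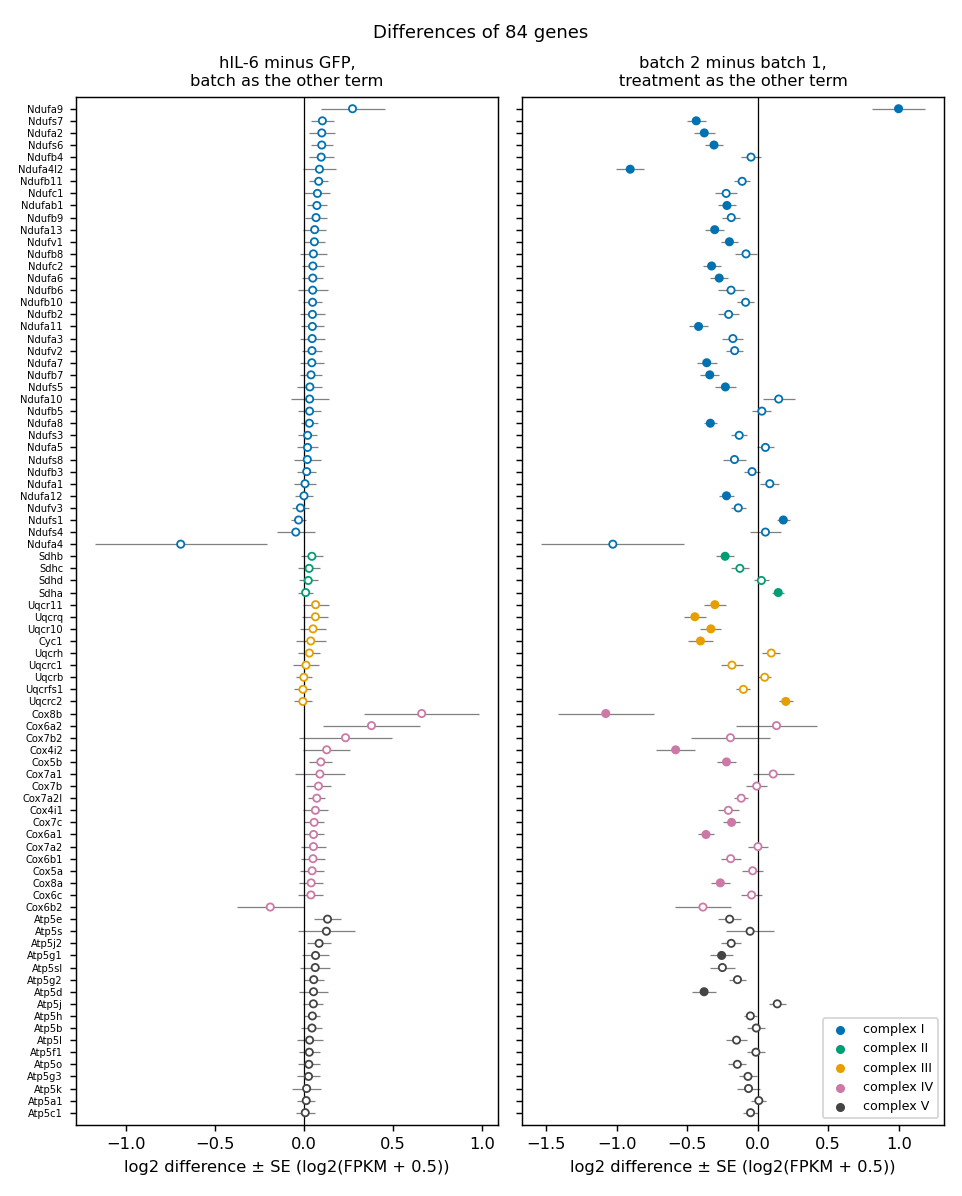
Log2 difference (log2(FPKM + 0.5)) ± SE of 84 of the members between vectors (left) and between batches (right), ordered by complex; filled points passed an adjusted p of 0.05. No point is filled at the left, and 28 filled points lie below 0 and 4 above 0 at the right.

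The batch difference moved with the base composition of the transcripts. Genes with an annotated transcript were split by GC content into quintiles, and the median batch difference of all genes ran from 0.23 in the GC-poorest to -0.24 in the GC-richest. The members' medians from the GC-poorest to the GC-richest quintile were -0.11, -0.044, -0.061, -0.18 and -0.32, so they were below 0 also in the GC-poorest, where all genes were above it. Lower members numbered 0 of 10 in the GC-poorest quintile, then 3 of 13, 6 of 24, 8 of 24 and 11 of 14, beside 0.783, 2.05, 5.04, 12.8 and 35.1% of all genes. Higher members numbered 1 and 3 in the GC-poorest quintile and the next, and 0 in the others. Spearman's rho between GC content and batch difference was -0.46 over the 85 members and -0.66 over 13402 genes, as a description across genes that share the same 9 libraries. Short transcripts differed too: genes up to 1000 nt had a median of -0.14, and the 50 members in that class had -0.19. Above 1000 nt all genes had a median of 0.0041, and the 35 members had -0.13. With each library corrected for transcript GC, 9 members were called (7 lower and 2 higher, 7 of them among the original 32) beside 2.45% of genes, and the median was -0.13. With GC and length corrected, 8 were called beside 2.74% of genes, and the median was -0.039. Uqcrq (-0.47) and Ndufa4l2 (-0.65) passed the test after the GC correction, and Ndufs7 (-0.18) did not. Neither did Atp5d (-0.13), Cox8a (-0.036), Ndufv1 (-0.029), Ndufs1 (0.038) and Uqcrc2 (0.039). These corrections were chosen after the data had been seen.

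**Figure D4:**
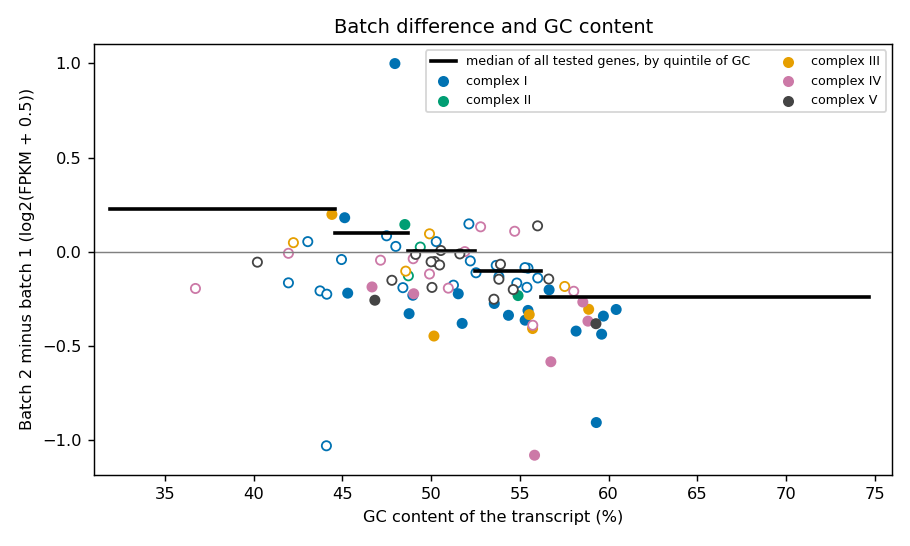
Batch difference of each member (log2(FPKM + 0.5)) against the GC content of its transcript; filled points passed an adjusted p of 0.05, and black bars give the median of all tested genes in each quintile of GC. The bars fall from 0.23 to -0.24, and the lower members gather at the GC-rich side.

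The opening coding bases of 4 genes are shown as picked examples of the difference in composition. The GC quintiles above used whole transcripts and not these bases. Not all called genes followed the pattern. The lower genes Ndufab1, Cox7c and Atp5g1 had transcripts of 45.3, 46.7 and 46.8% GC, beside 45.1 and 44.4% for the higher genes Ndufs1 and Uqcrc2. Ndufs7 and Uqcr10 were lower in batch 2, and Ndufs1 and Uqcrc2 were higher. The first 120 coding bases, with G and C in capitals, were spliced from GRCm38 exons at chr10:80249476-80253140 on the plus strand (Ndufs7), chr11:4704187-4704306 on the minus strand (Uqcr10), chr1:63170083-63170909 on the minus strand (Ndufs1) and chr7:120635290-120637850 on the plus strand (Uqcrc2).
Ndufs7: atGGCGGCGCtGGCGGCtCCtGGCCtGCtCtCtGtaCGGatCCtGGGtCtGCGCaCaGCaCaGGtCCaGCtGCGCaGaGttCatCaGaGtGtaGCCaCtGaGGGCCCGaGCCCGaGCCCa
Uqcr10: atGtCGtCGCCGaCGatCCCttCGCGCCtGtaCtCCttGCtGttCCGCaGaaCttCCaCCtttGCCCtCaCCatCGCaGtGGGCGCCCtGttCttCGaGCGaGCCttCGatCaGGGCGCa
Ndufs1: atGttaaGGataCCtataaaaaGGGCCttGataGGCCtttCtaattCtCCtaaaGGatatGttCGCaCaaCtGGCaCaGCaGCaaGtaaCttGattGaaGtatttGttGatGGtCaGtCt
Uqcrc2: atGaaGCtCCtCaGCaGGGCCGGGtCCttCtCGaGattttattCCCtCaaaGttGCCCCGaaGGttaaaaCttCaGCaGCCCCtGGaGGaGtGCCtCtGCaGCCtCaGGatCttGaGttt
G and C made up 66.7% of these bases in Ndufs7, 61.7% in Uqcr10, 39.2% in Ndufs1 and 53.3% in Uqcrc2. Over the whole coding sequence they made up 61.6%, 55.7%, 45.1% and 46.7%.

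Genes that work beside the nuclear subunits did not all go the same way. Of the 13 mtDNA subunit genes, whose transcripts hold 31.9 to 41.1% GC, 8 were higher in batch 2 and 1 was lower. The shares of all genes were 11.4% and 11.1%. The mtDNA median was 0.35, a direction that turned to -0.038 under quantile normalization. mt-Nd4, a proton-pumping subunit of complex I, was at 6442 to 6619 FPKM in batch 1 and at 9151 to 9535 FPKM in batch 2 (0.51, adjusted p = 0.00362). mt-Co2, a catalytic subunit of complex IV, went the other way, from a range of 13440 to 15400 FPKM to a range of 8279 to 10370 FPKM (-0.65, adjusted p = 0.00503). After the GC correction 0 of the 13 were higher and 1 was lower (median 0.053), and after the correction for GC and length 2 were higher and 1 was lower (median 0.14).

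Among all genes tested, 11.1% were called lower in batch 2 and 11.4% higher. Of 47 assembly factors tested, 8 were lower and 0 higher. The lower ones included Atpif1, the inhibitor of ATP synthase (-0.34), and Cox14 (-0.40), a factor of complex IV assembly. Of 77 mitochondrial ribosomal protein genes, 20 were lower and 0 higher, with a median of -0.12 and Mrps24 at -0.47. Of 17 genes of the tricarboxylic acid cycle, 3 were higher and 1 was lower, and Idh3a, a subunit of isocitrate dehydrogenase, rose from a range of 22.2 to 33.6 FPKM to a range of 48.7 to 59.9 FPKM (0.89, adjusted p = 0.00529). Of 17 genes of glycolysis, 1 was lower (Aldoa, -0.24). Of 10 mitochondrial carriers and channels, 1 was higher (Cycs, cytochrome c, 0.36). Of 15 regulators of mitochondrial biogenesis, Gabpa (0.31) was higher, and Polg (-0.29) and Esrra (-0.83) were lower. Beside the shares of all genes, few calls in a short list say little about the list as a whole. Apart from the mtDNA genes, no GC-corrected values are given for these lists.

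Between the vectors, no member passed the test. With batch as a term, 0 of 85 members and 0 of 13958 genes (0%) had an adjusted p under 0.05, and at an unadjusted limma p under 0.05 the counts were 0 members and 543 genes (3.89%). The members' differences were small and mostly of the same sign. The median was 0.048 against -0.0026 over all genes, and 76 of 85 were above 0, beside 6826 of all 13958 genes. Short transcripts shared part of this: all genes up to 1000 nt had a median of 0.035, and the 50 members in that class had 0.051. Above 1000 nt all genes had -0.0052, and the 35 members had 0.032. By complex, the medians were 0.047 (I), 0.027 (II), 0.031 (III), 0.065 (IV) and 0.048 (V). The median of complex III turned to -0.0078 under quantile normalization, -0.0068 when GFP library 1 was left out, -0.015 with GC and length correction, -0.0034 without both libraries with pituitary transcripts and -0.0078 without the 3 libraries low in motor neuron genes. That of complex II turned to -0.0084 when GFP library 3 was left out. In batch 1 alone the member median was 0.050 with 77 of 85 above 0, beside 7039 of all 13958 genes. There, 0 members and 0% of genes were called. Many members were high or low in the same libraries, so the counts above 0 are not of independent values. In batch 2, where a lone GFP library allows no test, hIL-6 library 4 differed from GFP library 4 by a median of 0.024 (54 members above 0) and hIL-6 library 5 by 0.050 (60 above 0). The size of the median moved with single libraries: leaving out GFP library 2 gave 0.10, leaving out GFP library 1 gave 0.023, leaving out GFP library 3 gave 0.011 and leaving out hIL-6 library 1 gave 0.031, and it was 0.0075, with 52 of 85 above 0, after the correction for GC and length. Without both libraries with pituitary transcripts it was 0.024, and without the 3 libraries low in motor neuron genes it was 0.015. The SD over libraries of the members' median deviation was 0.11, larger than each of these values. That SD includes the difference between batches and describes single libraries, so it is not the error of the vector difference. The 5 microglial markers moved with the vector: they summed to 84.3 to 101 FPKM over the GFP group, to 102 to 129 FPKM over the hIL-6 group, with a median difference of 0.36, and none of them passed the adjusted test. Their part in the member differences was not tested.

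The largest positive difference between vectors belonged to Cox8b. It was at 2.59, 3.05 and 3.69 FPKM in GFP libraries 1 to 3 and, with hIL-6 in the same batch, at 8.83, 4.001 and 10.03 FPKM. Batch 2 gave 2.57 FPKM for GFP library 4, 1.48 FPKM for hIL-6 library 4 and 2.65 FPKM for hIL-6 library 5. In batch 1 all hIL-6 values were above all GFP values, which held for this member alone (1.18% of members and 3.35% of all genes), and the reverse held for 0 members and 2.84% of genes. In batch 2 the vectors overlapped. The log2 difference was 1.09 ± 0.30 in batch 1 and 0.66 ± 0.32 with batch as a term, and neither passed the adjusted test. With batch as a term it was 0.23 with library weights, 0.33 without the 3 libraries low in motor neuron genes and 0.44 when hIL-6 library 3 was left out. Cox8b also fell in batch 2 (-1.08 ± 0.34, adjusted p = 0.0468), with overlapping batches and hIL-6 libraries 1 and 3 as the highest. Those libraries were also the ones lowest in motor neuron genes within batch 1, and the summed skeletal muscle markers in them were 5.97 and 9.56 FPKM against 5.24 to 7.74 FPKM in GFP libraries 1 to 3.

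Cox6a2, another muscle form, was at 0.297, 0.0993, 0.615 and 0.9497 FPKM in GFP libraries 1 to 4, against 1.05, 0.516, 1.06, 0.467 and 0.723 FPKM for hIL-6. The groups overlapped, and its values are near the level at which counting error is large. With the vectors compared in batch 1 alone, Cox8b and Cox6a2 were the 2 members with an unadjusted limma p under 0.05 (2.35% of members, beside 2.84% of genes). In the test of whether the vector difference itself differed between batches, 0 members and 2 genes (0.0143%) passed the adjusted threshold, and Cox8b, Cox6a2 and Cox6b2 had an unadjusted limma p under 0.05 (3.53% of members, beside 2.13% of genes). Cox6b2 was at 4.18, 4.89, 4.59 and 5.12 FPKM in GFP libraries 1 to 4, against 3.55, 5.18, 6.14, 2.71 and 2.73 FPKM for hIL-6, lowest in the hIL-6 libraries of batch 2.

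The other members with the largest differences in either direction did not pass the test. Ndufa4 had the lowest difference (-0.69 ± 0.48), which includes the value of 0 in hIL-6 library 2. Ndufa9 had the highest of complex I (0.27 ± 0.18), which was 0.094 when GFP library 1 was left out, 0.12 without both libraries with pituitary transcripts and 0.45 without the 3 low in motor neuron genes, and Ndufs4 was at -0.045 ± 0.11. Atp5e, the epsilon subunit of complex V, was at 239, 300.2, 245 and 223 FPKM in the 4 GFP libraries, against 278, 273, 299.5, 233 and 265 FPKM for hIL-6 (0.13 ± 0.075), with overlapping groups. In complex II the differences ran from 0.010 ± 0.042 (Sdha) to 0.045 ± 0.060 (Sdhb), and in complex III from -0.0055 ± 0.049 (Uqcrc2) to 0.066 (Uqcr11). The mtDNA genes had a median of 0.015 between vectors, with 0 of 13 called. None of the other gene lists had a called gene between vectors. Lyrm7, an assembly factor of complex III, had the smallest unadjusted p among the assembly factors (means of 14.1 FPKM for GFP, 11.5 FPKM for hIL-6, -0.29), Pprc1 among the regulators (-0.33) and Mrps5 among the mitochondrial ribosomal proteins (-0.21).

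**Figure D5:**
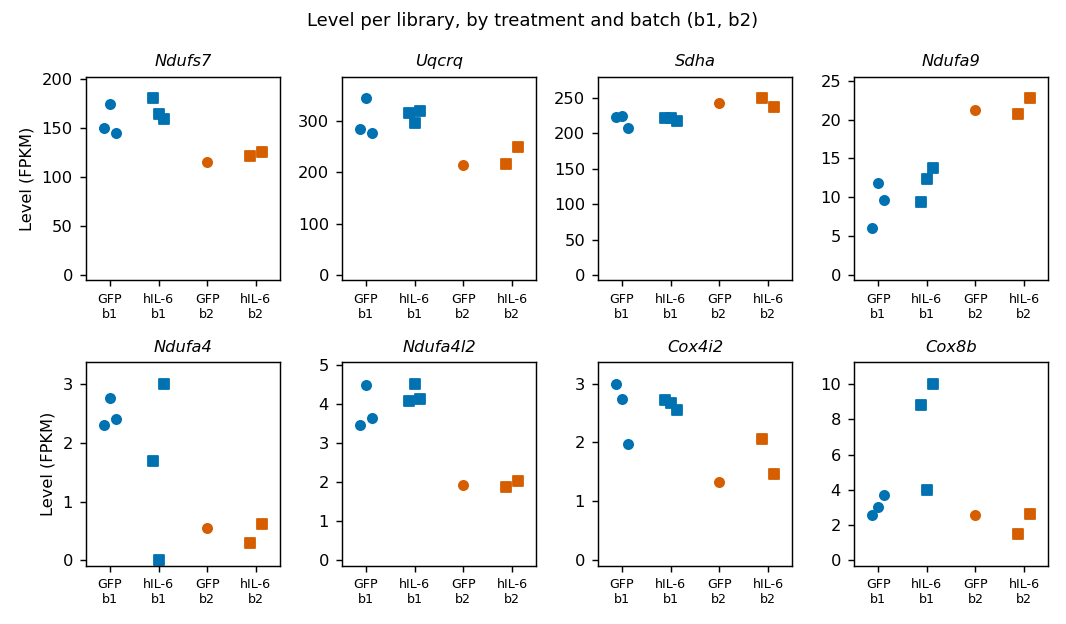
Level (FPKM) per library of 8 members by vector and batch (b1 and b2), with batch 1 in blue, batch 2 in orange, circles for GFP and squares for hIL-6; each axis starts near 0. The values of Ndufs7, Uqcrq and Ndufa4l2 are lower and those of Sdha and Ndufa9 higher in batch 2, and Cox8b reaches 8.83 and 10.03 FPKM only in hIL-6 libraries 1 and 3 among the 9.

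Promoters of genes in this chain are known to carry sites of NRF1, ETS factors such as GABP, oestrogen-related receptors (ERR) and YY1. Windows from 250 bases before to 50 bases after the start were available from RefSeq (GRCm38.p6) for 70 members by symbol, 76 windows in all, among 32851 windows of the same length over all genes. The letters GCGCATGC or GCATGCGC (NRF1, both strands) were in 10 of the 76 windows (13.2%) and in 2.71% of all windows. CCGGAAG or CTTCCGG (ETS) were in 21.1% and 8.86%, AAGGTCA or TGACCTT (ERR) in 10.5% and 4.72%, and AAGATGGC or GCCATCTT (YY1) in 15.8% and 2.75%. A match is a description of the letters and not a site in use, and overlapping matches were counted once per window. Both NRF1 and ETS letters were in windows of 5 members. Cox6a1, Sdhb and Uqcr11 fell in batch 2, whereas Atp5k (-0.066 ± 0.085) and Atp5l (-0.15 ± 0.077) did not pass the test, so nothing about the batch difference is drawn from the letters. The windows of Cox6a1, Sdhb and Uqcr11 are shown as examples from complexes IV, II and III, with the letters in capitals. They lie at chr5:115348909-115349208 on the minus strand, chr4:140961021-140961320 on the plus strand and chr10:80406772-80407071 on the minus strand.
Cox6a1: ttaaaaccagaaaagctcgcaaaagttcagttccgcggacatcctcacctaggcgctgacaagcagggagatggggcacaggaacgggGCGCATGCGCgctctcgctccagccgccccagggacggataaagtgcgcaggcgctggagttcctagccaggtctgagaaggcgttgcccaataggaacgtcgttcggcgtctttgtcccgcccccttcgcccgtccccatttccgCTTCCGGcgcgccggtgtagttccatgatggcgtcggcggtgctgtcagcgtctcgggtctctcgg
Sdhb: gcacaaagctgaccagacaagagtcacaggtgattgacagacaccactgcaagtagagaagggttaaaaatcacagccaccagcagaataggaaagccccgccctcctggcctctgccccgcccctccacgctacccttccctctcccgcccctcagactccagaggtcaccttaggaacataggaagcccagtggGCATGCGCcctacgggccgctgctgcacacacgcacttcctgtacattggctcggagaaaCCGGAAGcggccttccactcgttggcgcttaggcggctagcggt
Uqcr11: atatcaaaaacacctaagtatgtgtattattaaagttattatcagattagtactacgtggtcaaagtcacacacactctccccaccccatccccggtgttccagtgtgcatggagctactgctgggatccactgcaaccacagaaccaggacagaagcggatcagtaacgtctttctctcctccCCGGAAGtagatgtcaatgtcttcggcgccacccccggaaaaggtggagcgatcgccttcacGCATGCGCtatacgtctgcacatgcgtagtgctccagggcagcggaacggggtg
In Cox6a1 the NRF1 letters of both strands overlap. The 3 windows hold 52.0 to 63.0% GC.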

How the data were processed

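Expression values are FPKM, deposited by the authors as 1 table with 1 column per library and no pooling. The tools kallisto and DESeq2 and the build mm10 are named per the submitters' processing notes; for versions, annotation and scaling between libraries, nothing is given in the sources used here. Because kallisto estimates levels by likelihood, a 0 can be a failed estimate and near-identical genes can share fragments. Per the labels' protocols, poly(A) libraries were made with Illumina Stranded mRNA Prep. Libraries were compared in pairs, and 0 pairs were identical.

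The 13958 genes whose mean reached 0.5 FPKM were tested on log2(FPKM + 0.5), a scale that understates changes of low genes. The fit used limma 3.58.1 (R 4.3.3) and its trend option, had vector and batch as terms, and gave two-sided p-values that were adjusted over the 13958 genes after Benjamini and Hochberg, with a threshold of 0.05. Interaction and batch 1 alone were fitted likewise. The fit was tested on simulated data. Depth came from the steps between low values, of which 98.7 to 100% were whole within 0.05; no count test was run, since fragments could not be recovered for genes with several transcripts. Symbols were matched to GENCODE M21 (GRCm38, the assembly mm10): 84 members matched and 1 was renamed. Copies were found with blastn 2.17.0. Single values of 1 member are not reported here, while counts and medians include it. The members and lists were chosen with earlier results of these data known. Named genes were, per complex, the highest and lowest in level, the 2 highest and 2 lowest between vectors, the 2 largest between batches, called members by p, alternative forms, and called or leading genes of the other lists. Alternatives changed the pseudocount, filter, scaling, terms, library weights and libraries.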

Additional observations from a re-analysis of the deposited data

Results flagged for a closer look

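Within the 4 GFP or the 5 hIL-6 libraries, 7 of 168 groups of values held a library whose gap to its nearest neighbour took an unusually large share of the range (above Dixon's 95% critical value); chance flags about 1 in 20 groups. GFP library 2 was the high library for Ndufb8 (484 FPKM), Ndufb10 (260.2 FPKM), Ndufb11 (124 FPKM) and Ndufb3 (113 FPKM) of complex I and for Atp5o (348 FPKM) of complex V. Among the hIL-6 libraries, library 1 was the high library for Atp5b (1025 FPKM) and library 5 for Cox7a1 (14.7 FPKM). These genes share libraries, so the flags are not independent of each other.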

How the results depend on the processing

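No member was called between vectors, and none in the interaction, under any alternative run; the interaction could not be fitted without GFP library 4, and where a batch kept 1 hIL-6 library it was assumed to vary like the others. The median between vectors stayed above 0 throughout, from 0.0107 to 0.104 with 1 library left out. In batch 1 the deviations of same-numbered libraries correlated at 0.019, -0.11 and 0.27, beside -0.298 to 0.277 for other pairs of a GFP and a hIL-6 library. So few values cannot tell whether the numbers pair libraries. With a replicate block, in which hIL-6 library 5 has no partner, the median was 0.044 and 0 members were called. The 32 batch calls became 58 with each library scaled to a sum of 1e6, which moved the median of all genes by -0.11; the member median was then -0.28, or -0.17 relative to all genes. They became 9 with GC correction, 8 with GC and length correction (median -0.039), 1 without both libraries with pituitary transcripts and 0 without the 3 low in motor neuron genes, and lay between 1 and 38 with 1 library left out. Other settings gave 26 to 48. A single call was lost under 1 (Ndufa4l2) to 13 of 22 settings. With GC and length correction Cox8a turned to 0.056, Ndufa13 to 0.045, Ndufb7 to 0.013, Ndufv1 to 0.023 and Uqcr11 to 0.028. The cause was not tested beyond fewer libraries in the fits that leave some out. Depth limits members under 1 FPKM.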
